A study of Homo sapiens with 18 samples.

Results

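The genes described here are 38 members of the WNT signalling families, taken by name: 19 WNT ligands, 10 frizzled receptors (FZD), 5 secreted frizzled-related genes (SFRP1, SFRP2, SFRP4, SFRP5 and FRZB) and 4 dickkopf genes (DKK). They are 38 of the 19675 protein-coding genes that could be placed with a strand on GRCh38. Each gene was followed in 12 peak lists, from 3 kb upstream of its start to its end (its window), and in the authors' tables of listed sites. V16D is a castration-resistant prostate cancer line derived from LNCaP cells and grown in medium with fetal bovine serum. V16D/CTL cells carry a control lentivector and V16D/H19 cells a lentivector that overexpresses the long non-coding RNA H19, whose plasmid drives H19 from a CMV promoter. Each line had 3 biological replicates, and each replicate was profiled by chromatin immunoprecipitation and sequencing for H3K4me3 and for H3K27me3, with an input. All groups therefore share the V16D background and a lentiviral transduction, and every value comes from 1 cell line.

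WNT proteins are secreted lipid-modified ligands. They bind frizzled receptors, together with LRP5 or LRP6, to stabilise beta-catenin, or act through frizzled and other receptors without it. SFRP proteins bind WNT ligands outside the cell, and most dickkopf proteins block the LRP co-receptors. H3K4me3 marks active or poised gene starts. H3K27me3 is laid down by the Polycomb repressive complex PRC2 over silenced developmental genes, and starts that carry both marks are called bivalent.

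The lists held 20048 to 21934 H3K4me3 peaks and 55060 to 72289 H3K27me3 peaks. Depth was not used here, so a start without a peak may still carry the mark below the caller's threshold. All 6 luminal prostate markers examined (KLK2, KLK3, TMPRSS2, FKBP5, KRT8 and KRT18) had an H3K4me3 peak within 1 kb of the start in every library and no H3K27me3 peak there, and none of the basal (3), endothelial (2 measured) or leukocyte (3) markers had H3K4me3 there. Of the 4 fibroblast markers, COL1A1 carried both marks, COL1A2 H3K27me3 alone, and COL3A1 and LUM neither. No list held a peak within 10 kb of H19 itself, so these files give no check of its overexpression.

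The starts of WNT6 and WNT7A are shown because the authors' tables list sites over both. Each line gives the 250 bases before the start in RefSeq (GRCh38.p14), from 5′ to 3′ along the gene, with GC boxes (GGGCGG or, on the other strand, CCGCCC) in capitals. WNT6 lies on the plus strand (chr2:218859555-218859804) and WNT7A on the minus strand (chr3:13880072-13880321). FZD10 also has a listed promoter site.
WNT6: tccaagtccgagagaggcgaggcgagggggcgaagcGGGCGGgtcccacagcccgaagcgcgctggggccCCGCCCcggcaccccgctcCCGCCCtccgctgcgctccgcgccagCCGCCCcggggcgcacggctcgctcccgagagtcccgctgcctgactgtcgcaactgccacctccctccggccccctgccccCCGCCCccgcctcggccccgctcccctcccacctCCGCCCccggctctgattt
WNT7A: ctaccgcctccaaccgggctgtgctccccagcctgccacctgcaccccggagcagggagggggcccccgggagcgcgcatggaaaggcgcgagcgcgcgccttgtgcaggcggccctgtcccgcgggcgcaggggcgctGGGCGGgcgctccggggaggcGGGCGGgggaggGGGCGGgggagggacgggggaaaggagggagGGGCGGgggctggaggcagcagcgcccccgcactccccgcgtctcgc
The WNT6 stretch held 6 GC boxes and 32 CpG dinucleotides, and the WNT7A stretch 4 and 29. The table's full windows reach from 250 bases before to 50 after a start, and the 26 members with an entry have 29 of them. GGGCGG on either strand was found in 24 of the 29, against 56.3% of 22199 protein-coding promoter windows. CCAAT was found in 13 of the 29 windows, TATAAA in 3 and CTTTGA, the core of TCF and LEF sites, in that of DKK1 alone. The shares of all windows were 34.7%, 9.47% and 10.9%. The median window of the members held 28 CpG and the median of all windows 21. A match here is a description of letters and not a binding site.

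H3K27me3 lay at the starts of these genes at a higher share than at gene starts in general. Between 15 and 17 of the 38 members had an H3K27me3 peak within 1 kb of the start (39.5% to 44.7%), against 9.12% to 11.5% of all protein-coding genes. H3K4me3 was found at 21 members in each V16D/CTL library and 23 in each V16D/H19 library (55.3% and 60.5%), against 62.1% to 63.3% of all genes. Across the 12 lists, 11 members carried H3K4me3 in all 6 libraries of that mark with no H3K27me3 peak, 7 carried H3K27me3 in all 6 with no H3K4me3 peak, 4 carried both in all 6, 8 carried neither and 8 varied among libraries. The same classes held 54.0%, 2.25%, 2.91%, 29.0% and 11.8% of all genes. These shares describe a family chosen by name and were not tested.

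**Figure D1:**
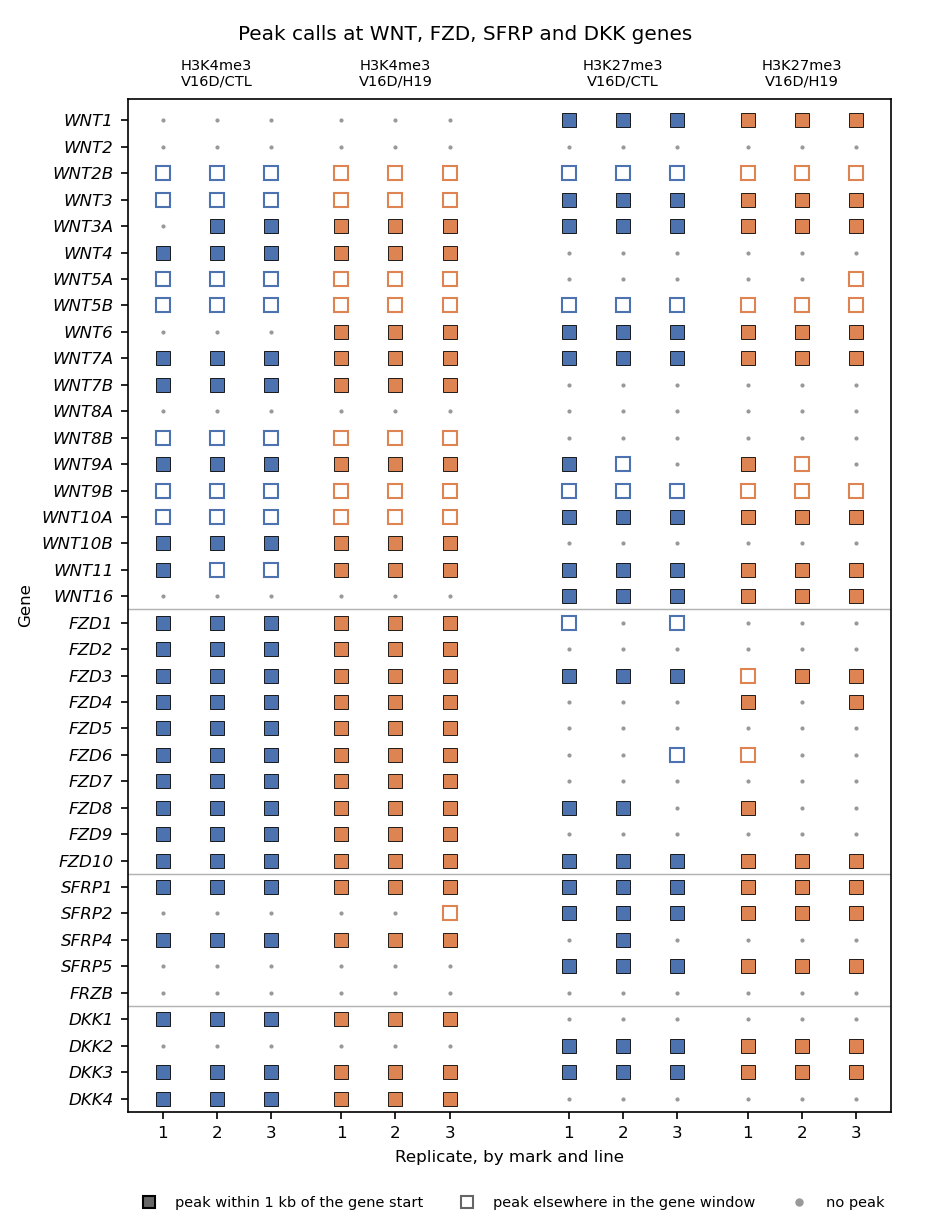
Peak calls at each gene (rows) in each library (columns, replicates 1 to 3). Filled squares mark a peak within 1 kb of the gene start, open squares a peak elsewhere in the window and dots no peak. All 10 FZD rows are filled for H3K4me3, and WNT6 is filled for H3K4me3 in the 3 V16D/H19 libraries and in none of the 3 V16D/CTL libraries.

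The receptors carried H3K4me3 throughout. All 10 frizzled genes had H3K4me3 at the start in all 6 libraries, and 6 of them (FZD1, FZD2, FZD5, FZD6, FZD7 and FZD9) never had H3K27me3 there. FZD10 carried both marks in all libraries. FZD3, FZD4 and FZD8 had H3K27me3 at the start in 5, 2 and 3 of the 6 libraries, without the 3 libraries of 1 line parting from the 3 of the other. The H3K27me3 site of FZD8 lies 592 bases from its start but 42 bases from that of LOC124902528, and the lists do not separate these 2 genes. The H3K4me3 peaks at the starts of FZD1 to FZD8 reached 15.97-fold to 55.3-fold over input, and those of FZD9 and FZD10 4.28-fold to 23.2-fold. Another site in the FZD3 window, at the start of FBXO16, reached 62.1-fold in V16D/H19 replicate 1.

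Of the 19 ligands, 6 had H3K4me3 at the start in each V16D/CTL library, not all the same ones, and 8 in each V16D/H19 library. WNT4, WNT7B and WNT10B had H3K4me3 alone. WNT1, WNT3, WNT10A and WNT16 had H3K27me3 alone, and WNT7A had both. WNT3A, WNT6 and WNT11 had H3K27me3 in all 6 libraries with H3K4me3 in some, and WNT9A had H3K4me3 in all 6 with H3K27me3 in 1 library of each line. WNT2B, WNT3, WNT5A, WNT5B, WNT8B, WNT9B and WNT10A had H3K4me3 only away from the 5′ end of the gene. A second RefSeq start carried it in all 6 libraries for WNT2B (42424 bases downstream), WNT5A (17957 bases), WNT5B (12175 bases) and WNT9B (18394 bases). The second starts of WNT2B and WNT9B also carried H3K27me3 in all 6, and that of WNT5B in 5, whereas that of WNT5A, a ligand of the beta-catenin-independent branch, carried none. WNT2 and WNT8A had no peak of either mark in any library.

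Of 4 pairs of neighbouring ligand genes, 1 carried opposite marks. WNT1 and WNT10B start 6587 bases apart on chromosome 12, and WNT1 had only H3K27me3 at its start while WNT10B had only H3K4me3, in all 6 libraries of each mark. WNT6 and WNT10A (14311 bases apart) share 1 H3K27me3 site that spans the end of WNT6 and the start of WNT10A, and its values count for both. Both had H3K27me3 at the start in all 6 libraries. WNT3 and WNT9B start 14497 bases apart, with H3K27me3 at the start of WNT3 and neither mark at that of WNT9B, and WNT3A and WNT9A start 59066 bases apart and both varied among libraries.

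Among the antagonists, SFRP2, SFRP5 and DKK2 had H3K27me3 alone at the start in all 6 libraries. SFRP1 and DKK3 carried both marks in all 6. DKK1, a target of beta-catenin signalling, and SFRP4 had H3K4me3 in all 6, with H3K27me3 in none for DKK1 and in 1 V16D/CTL library for SFRP4. DKK4 reached the highest H3K4me3 fold of any member (42.5 to 86.3 over the 6 libraries), but the start of VDAC3, a mitochondrial channel gene, lies 558 bases away under the same peak, and the lists do not separate the pair. FRZB had no peak of either mark.

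Both marks were found together at 8, 8 and 6 member starts in V16D/CTL replicates 1, 2 and 3, and at 10, 8 and 9 in V16D/H19. The member counts of the lines met at 8. Over all genes the share was 5.22% to 5.84% in V16D/CTL and 5.05% to 5.57% in V16D/H19, which overlapped. The members with both marks in more V16D/H19 than V16D/CTL libraries were WNT3A, WNT6, WNT11 and FZD4, and FZD3, FZD8 and SFRP4 had them in fewer. WNT3A had an H3K4me3 peak at its start in 2 of 3 V16D/CTL and 3 of 3 V16D/H19 libraries, and WNT11 in 1 of 3 and 3 of 3.

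WNT6 was the only member whose promoter call parted completely between the lines. Its window (chromosome 2, gene 218859805 to 218874233) held no H3K4me3 peak in V16D/CTL replicates 1, 2 and 3. In V16D/H19 it held 1 peak over the start in each replicate, of 702, 703 and 215 bases, with highest folds over input of 11.0, 7.07 and 3.97. The peak of replicate 3 was the shortest and weakest. Among 12639 genes with an H3K4me3 promoter peak in any library, 0.332% had this pattern and 0.0396% the reverse, which no member showed. An exact permutation test of 3 against 3 cannot give a p below 0.1, so none was run on the calls. The limma fit over all sites required a peak in all 6 libraries and left this site out. In the alternative over sites called in 2 libraries or more, with a missing peak set to 0, the difference in log2(fold + 1) was 2.94 (SE 0.686, adjusted p = 0.370), a size that depends on the added 1. Over the same start H3K27me3 was called in all 6 libraries. The site there had highest folds of 5.25, 5.74 and 5.07 in V16D/CTL against 4.96, 4.06 and 4.99 in V16D/H19. These 2 sets of folds did not overlap, beside 17.9% of 2725 windows lower in highest fold. The log2 difference of the site was -0.16 (SE 0.113, adjusted p = 0.80, limma). The authors' table of H3K4me3 sites lists the WNT6 promoter (218859470 to 218860178), with an authors' mean log2 concentration of 2.58 in V16D/CTL against 4.74 in V16D/H19.

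WNT7A, a ligand expressed in epithelia and neural tissue, had covered lengths that did not overlap between the lines for either mark. Its gene spans chromosome 3, 13816258 to 13880071. H3K27me3 peaks covered 12215, 17976 and 16365 bases of its window in V16D/CTL replicates 1 to 3, and 7673, 11560 and 8839 bases in V16D/H19. The highest V16D/H19 library lay below the lowest V16D/CTL library, as in 19.2% of 4559 windows. The V16D/H19 mean was 60.3% of the V16D/CTL mean (9357 ± 1995 against 15519 ± 2972, SD, n = 3 each), beside 84.4% over all windows. In the limma fit of covered bases alone, with centring, the log2 difference was -0.39 with an adjusted p = 0.192. The window held 13, 19 and 14 peaks against 8, 13 and 9. At the start, the site from 13876875 to 13882544 had highest folds of 5.66, 5.55 and 6.99 in V16D/CTL against 4.20, 3.99 and 3.99 in V16D/H19, again without overlap (beside 17.9% of 2725 windows lower in highest fold). In limma over 10889 H3K27me3 sites with each library centred on its median, the log2 difference (V16D/H19 minus V16D/CTL) of this site was -0.53 (SE 0.114), and its adjusted p = 0.158 missed 0.05 (0.0673 to 0.645 over 11 alternatives). The window as a whole, measured as covered bases times fold over input, had a log2 difference of -0.50 (SE 0.165) and an adjusted p = 0.0529 over 2725 gene windows. Without centring it was -0.95 with an adjusted p = 0.00777, and leaving out V16D/H19 replicate 2 gave an adjusted p = 0.0244. Over 12 alternatives this adjusted p ranged from 0.00777 to 0.202, and the window was lower in V16D/H19 under each of them.

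H3K4me3 at the WNT7A start had the larger extent in V16D/H19. It covered 326, 460 and 682 bases in V16D/CTL against 1224, 1344 and 769 in V16D/H19, so the groups did not overlap. Of 14011 H3K4me3 windows, 8.47% were higher in this way, and the share that parted in both marks was not computed. The V16D/H19 libraries held 2, 3 and 2 peaks where each V16D/CTL library held 1, the additional ones lying between 557 and 1175 bases inside the gene and, in replicate 2, also from -896 to -651 bases relative to the start. The highest folds were 6.19, 3.78 and 7.89 in V16D/CTL against 10.5, 8.92 and 5.998 in V16D/H19, which overlapped, and the log2 difference of the merged site was 0.49 (SE 0.355, adjusted p = 0.834, limma). The authors' tables list the WNT7A promoter for both marks. The authors' mean log2 concentration was 4.85 in V16D/CTL against 5.77 in V16D/H19 for H3K4me3 (13878800 to 13880409), and 7.91 and 7.07 for H3K27me3 (13875003 to 13884333). They also list an intronic H3K27me3 site (13833347 to 13838965, authors' means 6.45 and 5.73) and one beyond the end of the gene, at a distance of 84608 bases in the authors' annotation (13786992 to 13790505, authors' means 5.23 and 4.11), which was called in 3 V16D/CTL libraries and no V16D/H19 library.

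**Figure D2:**
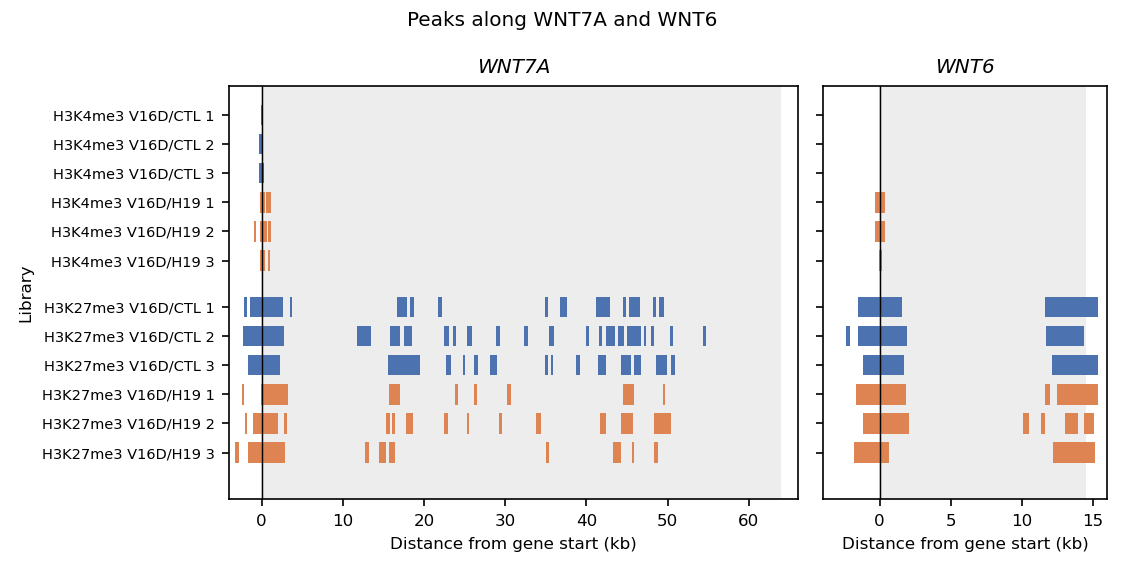
Peaks of each library along WNT7A and WNT6, against distance from the gene start in kb (gene body shaded, V16D/CTL blue, V16D/H19 orange). The H3K27me3 bars of WNT7A number 13, 19 and 14 in V16D/CTL against 8, 13 and 9 in V16D/H19, and WNT6 has H3K4me3 bars in V16D/H19 alone.

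Over the family as a whole, H3K27me3 peaks covered 76653, 99268 and 91506 bases of the member windows in V16D/CTL against 77394, 74889 and 76134 in V16D/H19. The V16D/H19 mean was 85.4% of the V16D/CTL mean, and the share over all protein-coding windows was 84.4%. Without WNT7A the members stood at 90.7%. Of 23 members with an H3K27me3 peak in at least 2 libraries, WNT7A and WNT10A had fewer covered bases in every V16D/H19 library than in any V16D/CTL library, and no member had more. Over 4559 such windows, 19.2% were lower and 2.92% higher in this way. The members' shares, on these small counts, were no larger in either direction and were not tested. WNT10A, a ligand of skin and tooth development, had 4515, 4182 and 4648 covered bases against 3998, 2439 and 3007, and its window log2 difference was -0.12 (SE 0.319, adjusted p = 0.895, limma), turning to 0.10 without V16D/H19 replicate 2.

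In peak height, of 18 members with H3K27me3 in all 6 libraries, the highest fold was lower in every V16D/H19 library for 7 (WNT1, WNT2B, WNT6, WNT7A, WNT11, FZD10 and SFRP2) and higher for WNT3. Over 2725 windows these patterns held for 17.9% and 2.35%. WNT11, a ligand of the beta-catenin-independent branch, had highest folds of 4.89, 6.499 and 4.96 in V16D/CTL against 4.30, 4.22 and 4.32 in V16D/H19, and its promoter site differed by -0.29 (SE 0.117, adjusted p = 0.603). WNT3 had 3.42, 3.12 and 3.66 against 4.03, 3.82 and 3.77, and its site differed by 0.24 (SE 0.115, adjusted p = 0.66). Both site tests are limma with library centring, and with WNT7A they were the 3 member sites of 23 with an unadjusted p below 0.05.

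**Figure D3:**
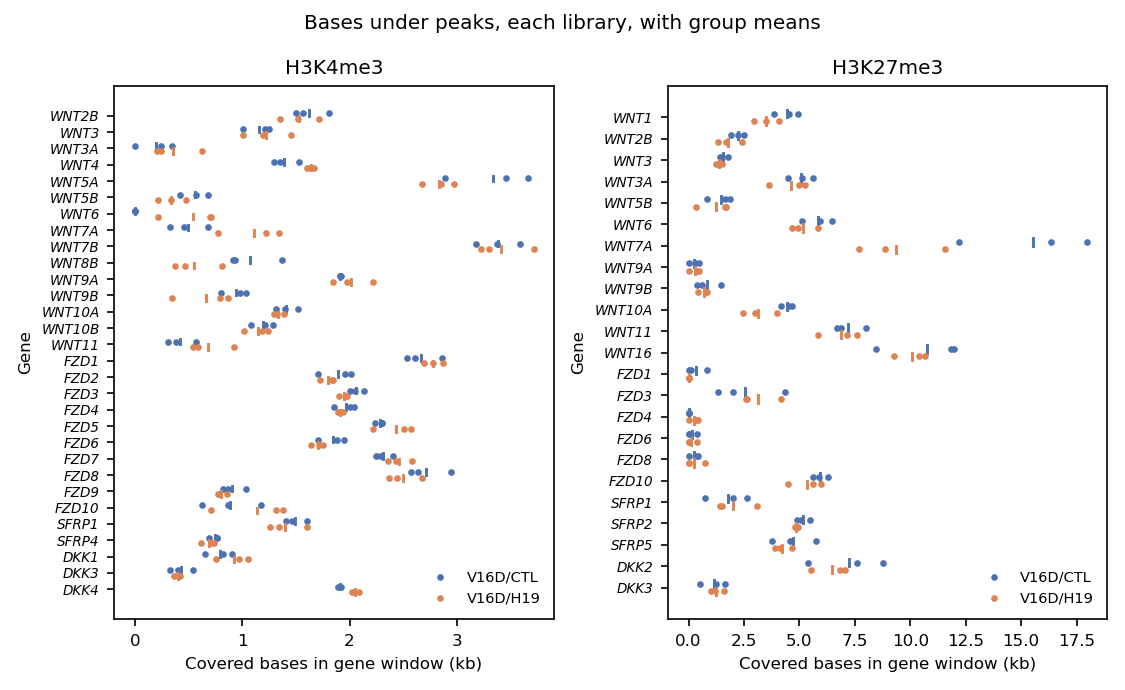
Bases under peaks in each gene window (kb, x axis) for members with a peak in at least 2 libraries (rows), points for single libraries and short bars for group means. The points of WNT7A do not overlap between the lines in either panel, lower in V16D/H19 for H3K27me3 (9357 against 15519 bases) and higher for H3K4me3 (1112 against 489 bases). Over all genes, 19.2% of 4559 H3K27me3 windows and 8.47% of 14011 H3K4me3 windows parted in these directions.

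No member passed the adjusted threshold of 0.05 in any of the fits as designed. In limma over all H3K27me3 sites, 0% of 10889 were called, with 812 at an unadjusted p below 0.05. Over H3K4me3 sites 0% of 15781 were called, with 1050 at an unadjusted p below 0.05 and 1 of 31 member sites among them. The H3K4me3 fit had little power for small changes in simulated libraries, where the observed spreads were reassigned at random among sites. It recovered 4% of sites changed by 1 on the log2 scale and 66% of those changed by 2. For H3K27me3 the same simulation recovered 93% of sites and 40% of gene windows changed by 1, and 100% and 77% of those changed by 2. The simulation did not keep any tie between spread and height. Over H3K27me3 gene windows 10.8% of 2725 were called (222 higher and 73 lower), against 0 of 18 member windows. An unadjusted p below 0.05 was found for 1 of the 18 and for 23.2% of all windows. Centring removed a median difference of -0.42 on the log2 scale, and without it 17 windows were higher and 330 lower, with WNT7A among the latter. Relative to that shift, 14 of the 18 member windows were above 0 and 4 below, with a median of 0.16 against 0.03 over all windows. Without centring, 4 were above and 14 below.

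**Figure D4:**
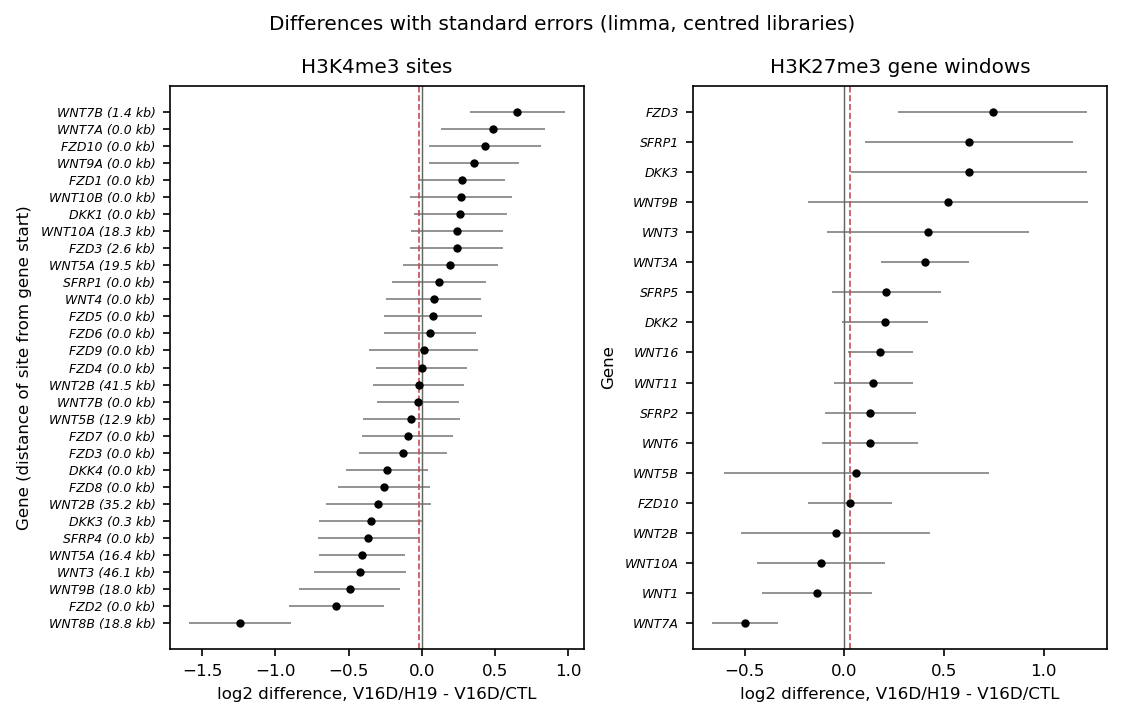
Log2 differences (V16D/H19 minus V16D/CTL, x axis) with standard errors from limma, for member H3K4me3 sites and H3K27me3 gene windows (rows), with the median over all features as a dashed line. WNT8B at -1.24 and WNT7A at -0.50 are the lowest in their panels.

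Among sites with a peak in all 6 libraries, which leaves out the WNT6 start, the ligand with the highest H3K4me3 difference was WNT7B, at a site 1433 bases from its start (chromosome 22, 45978595 to 45979470). Its folds were 14.3, 21.3 and 15.3 in V16D/CTL against 27.05, 23.4 and 31.8 in V16D/H19, so the groups did not overlap. The share of all H3K4me3 sites whose folds part in this way was not computed. The log2 difference of this WNT7B site was 0.65 (SE 0.324) with an adjusted p = 0.753 by limma. The site over the WNT7B start itself differed by -0.02 (SE 0.282, adjusted p = 0.994). For H3K27me3 windows the highest ligand was WNT9B, with 384, 620 and 1473 covered bases against 777, 437 and 828, which overlapped (log2 difference 0.52, SE 0.703, adjusted p = 0.75, limma). That difference was 0.07 without centring and 0.18 to 0.89 leaving out 1 library, and the mean covered length was lower in V16D/H19 (82.4% of V16D/CTL).

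WNT8B, a ligand of the developing forebrain, had the lowest H3K4me3 difference among member sites with a peak in all 6 libraries. The site (chromosome 10, 100481785 to 100483154) lies 18776 bases inside the gene, near its end, and not at its start. Its highest folds were 11.6, 15.9 and 13.0 in V16D/CTL against 8.72, 4.24 and 5.41 in V16D/H19, and it covered 1370, 928 and 910 bases against 806, 374 and 466. Neither measure overlapped between the lines. Covered bases were lower in this way in 5.98% of 14011 H3K4me3 windows, and the share for folds was not computed. The log2 difference was -1.24 (SE 0.349) with an adjusted p = 0.588 by limma (0.472 to 0.806 over 12 alternatives). The authors' H3K4me3 table lists an overlapping site under SEC31B, a gene of the secretory pathway, with authors' means of 5.95 in V16D/CTL against 4.46 in V16D/H19.

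In H3K4me3 extent, 4 of 30 members with a peak in at least 2 libraries were higher in every V16D/H19 library (WNT4, WNT6, WNT7A and DKK4) and 2 lower (WNT8B and FZD3), beside 8.47% and 5.98% of 14011 windows. WNT4, a ligand of female reproductive tract and kidney development, had 1297, 1529 and 1353 covered bases against 1633, 1603 and 1673. DKK4, at the start it shares with VDAC3, had 1911, 1892 and 1919 against 2025, 2053 and 2087. FZD3, a receptor of axon guidance, had 2133, 2047 and 2005 against 1970, 1979 and 1902, over a window that also holds the start of FBXO16. On the merged sites, the WNT6 start was called in 3 of 3 V16D/H19 and 0 of 3 V16D/CTL libraries (0.901% of 20655 sites called in 2 libraries or more). A site 8401 bases inside WNT9B (chromosome 17, 46841590 to 46841952), named after its values were seen, had folds of 4.55, 6.06 and 6.98 in V16D/CTL and no peak in V16D/H19 (0.412% of sites). No H3K27me3 site within a member window parted this way, beside 0.976% of 58679 sites called in V16D/H19 alone and 1.97% in V16D/CTL alone, and no H3K27me3 promoter call did either (0.364% and 1.89% of 3020 promoters).

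FZD10 was the receptor named in the authors' tables. Its start (chromosome 12, gene 130162464 to 130165740) carried H3K4me3 at highest folds of 13.1, 4.28 and 7.90 in V16D/CTL against 10.5, 16.8 and 6.80 in V16D/H19, which overlapped. This was the highest H3K4me3 log2 difference among the receptors at 0.43 (SE 0.384, adjusted p = 0.868), but it was 0.02 without V16D/CTL replicate 2, 0.14 without V16D/H19 replicate 2 and 0.79 without V16D/CTL replicate 1. H3K27me3 at FZD10 reached 6.39, 5.56 and 5.57 against 4.73, 5.46 and 5.52, without overlap (beside 17.9% of 2725 windows lower in highest fold). Its site differed by -0.11 (SE 0.115, adjusted p = 0.871) and its window by 0.03 (SE 0.21, adjusted p = 0.972, -0.42 without centring), all by limma. The authors' mean log2 concentration over its promoter (130157901 to 130167186) was 8.13 in V16D/CTL against 7.75 in V16D/H19. FZD2 had the lowest H3K4me3 difference of the receptors, with folds of 39.2, 34.9 and 27.04 against 28.7, 26.5 and 15.97 (log2 difference -0.58, SE 0.323, adjusted p = 0.774), which overlapped. Of FZD3 and FZD10, the only receptors with an H3K27me3 window tested, FZD3 had the higher difference, with 1317, 4348 and 1998 covered bases against 4191, 2597 and 2632 (0.74, SE 0.473, adjusted p = 0.388), which overlapped as well. It was 0.29 without centring and 0.39 (without V16D/CTL replicate 1) to 1.35 (without V16D/CTL replicate 2) leaving out 1 library.

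The antagonists had H3K4me3 log2 differences from -0.36 to 0.26, with adjusted p values of 0.887 to 0.969 in limma. SFRP4 and SFRP1 were the only SFRP genes with a site tested. SFRP4 had the lower log2 difference (-0.36, SE 0.345), with folds of 14.7, 15.3 and 9.79 against 7.25, 16.4 and 9.60, and SFRP1 the higher (0.12, SE 0.322). DKK1 stood at 0.26 (SE 0.317), with folds of 15.4, 17.6 and 13.6 against 20.6, 17.5 and 19.6, and DKK3 at -0.35 (SE 0.357), with folds of 4.36, 8.02 and 9.03 against 4.34, 6.90 and 5.67. The folds of these 3 genes overlapped between the lines, and leaving out 1 library gave -0.65 to -0.12 for SFRP4 and -0.71 to -0.11 for DKK3. For H3K27me3, SFRP1 had 724, 2019 and 2627 covered bases in V16D/CTL against 1433, 3106 and 1516 in V16D/H19 (0.63, SE 0.522, adjusted p = 0.544), and DKK3 had 534, 1660 and 1229 against 1003, 1594 and 1175 (0.63, SE 0.592, adjusted p = 0.605). Without centring both were 0.18, and leaving out 1 library gave 0.14 to 0.92 for SFRP1 and 0.24 to 0.96 for DKK3, each lowest without V16D/CTL replicate 1. Among the SFRP windows tested (SFRP1, SFRP2 and SFRP5), SFRP2 was the lowest (0.13, SE 0.228). DKK2 was the lower (0.20, SE 0.218) of the DKK windows tested, DKK2 and DKK3. SFRP2 and DKK2 were below 0 without centring (-0.32 and -0.24). Within these 2 classes the lines overlapped in covered bases at every gene for H3K27me3.

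SFRP1, DKK4 and FZD3 lie before 45 Mb of chromosome 8 and FZD6 beyond it. The median H3K4me3 log2 difference was 0.07 over 211 sites before 45 Mb, -0.07 over 357 sites beyond it and -0.02 over sites of other chromosomes. For H3K27me3 the medians were 0.03 over 297 sites before 45 Mb, -0.002 over 593 sites beyond it and -0.0095 over other chromosomes. Other chromosomes were not examined singly, so these medians do not show whether chromosome 8 stands apart. Any part of them in the values of these 4 genes was not tested. The authors' H3K4me3 table holds 1 site over the FZD6 start, with authors' means of 9.18 in V16D/CTL against 8.88 in V16D/H19.

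In all, 7 listed sites carried a member's name (WNT7A 4, WNT6, WNT11 and FZD10 1 each), out of 1140 H3K27me3 and 1857 H3K4me3 sites. The WNT11 site is an H3K4me3 site placed by the authors' annotation at -28029 bases, upstream of the gene, with authors' means of 9.34 and 9.03, outside the window used here. By overlap with the windows, a listed H3K27me3 site touched 2 of 23 members and 14.3% of all windows with a peak, and a listed H3K4me3 site touched 4 of 30 members and 12.8% of all such windows. The first share was below the background and the second near it.

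The other pathway genes examined were 41 in number. At their starts 22 had H3K4me3 in all 6 libraries without H3K27me3, a share near the 54.0% of all genes, 4 had both marks in all, 1 had H3K27me3 alone, 3 had neither and 11 varied. Of the 3 with neither, LRP5 and TCF7 had H3K4me3 elsewhere in the window in all 6 libraries (34.7-fold to 74.7-fold and 13.0-fold to 31.8-fold). The TCF7 window also held H3K27me3 in all 6. All 9 genes of the cytoplasm and the destruction complex, which degrades beta-catenin, had H3K4me3 alone. The R-spondin arm, of secreted amplifiers and their receptors, held 2 genes with both marks and 1 with H3K27me3 alone among 9. Of 14 pathway windows tested for H3K27me3, 1 was lower and none higher by limma at an adjusted 0.05, with 1 at an unadjusted p below 0.05. Over all windows 10.8% were called and 23.2% had an unadjusted p below 0.05, so the pathway share was no larger. The window called was that of LRP6, the co-receptor bound by dickkopf proteins, with 2799, 4305 and 3084 covered bases in V16D/CTL against 1206, 484 and 1125 in V16D/H19 (log2 difference -1.55, SE 0.506, adjusted p = 0.0489). The LRP6 start itself had an H3K27me3 peak in 1 V16D/CTL library and no V16D/H19 library, and H3K4me3 in all 6. Highest H3K27me3 folds in the LRP6 window were 3.32 to 3.89. In H3K4me3 extent, 3 pathway genes were higher in every V16D/H19 library (DVL1, DVL2 and DVL3) and 2 lower (AXIN2 and SP5) among the 41, no larger shares than the 8.47% and 5.98% over all windows. The adjusted p of LRP6 ranged from 0.0162 to 0.194 over 12 alternatives. Leaving out V16D/CTL replicate 1, 2 or 3 gave 0.124, 0.194 and 0.113, leaving out V16D/H19 replicate 2 or 3 gave 0.163 and 0.0626, and the replicate block gave 0.0803. The authors' tables list promoters of 3 pathway genes for H3K27me3, all lower in V16D/H19, as were 1043 of the 1140 listed H3K27me3 sites and 1412 of the 1857 listed H3K4me3 sites. Their means were 6.52 in V16D/CTL against 5.89 in V16D/H19 for ROR2, a receptor of WNT5A, 7.91 and 7.47 for RSPO1, and 8.32 and 8.03 for RSPO3. For H3K4me3 they list KREMEN2 (9.07 and 8.75), GSK3B (11.25 and 11.1), SP5 (7.03 and 6.46), a target of beta-catenin, and a site at DVL1 (1.35 and 3.98), a frizzled adaptor.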

How the data were processed

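The deposited data were MACS2 peak lists, 1 for each of 12 immunoprecipitated libraries, in which the authors gave each peak its fold over the replicate's input (a ratio), −log10 p-value and −log10 q-value, on hg38 per the labels. The authors also deposited, for each mark, a table of sites from DiffBind annotated with ChIPseeker, with a mean log2 concentration per line. Its fold, p-value and FDR columns hold the authors' comparison and were not used. Versions and the aligner are not given in the sources used here. Gene positions came from RefSeq (GRCh38.p14) and strands from its promoter table or, by symbol, GENCODE (19675 of 20037 genes). RefSeq GRCh38.p14 promoter sequences covered 26 of the 38 members.

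The members and lists were chosen with earlier results of these data known. A promoter was the 5′ end of the gene ± 1 kb, and a peak counted from 1 base of overlap. Peaks of a mark were merged across libraries into sites. limma 3.58.1 (R 4.3.3) was fitted with a trend to log2 of the highest fold at sites with a peak in all 6 libraries, and to log2 of covered bases times fold over gene windows, each library centred on its median, with Benjamini-Hochberg adjustment over all features. Requiring a peak in all 6 libraries leaves out genes called in 1 line alone, such as WNT6, which were described by their calls. The fits were tested on simulated data. Broad H3K27me3 regions were split into different peaks in each library, which the window sums take up. The files hold no read counts and depth was not used here, so no interval or floor was computed. The genes named with all their values were those in the authors' tables, those past the adjusted threshold, those called in 3 libraries of 1 line and none of the other, and the extremes of each class. Alternatives were other scalings, filters, windows, peak thresholds, a replicate block and leaving out each replicate. Of the markers, PECAM1 was not measured.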

Additional observations from a re-analysis of the deposited data

How the results depend on the processing

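With -log10 q of at least 5, no member kept H3K27me3 at its start in all 6 libraries (0 against 14) or both marks (0 against 4), and covered H3K27me3 in V16D/H19 was 27.1% of V16D/CTL against 85.4%. That 27.1% has no share over all windows beside it and describes only the peaks kept, so it is not a result about the members. The threshold left no member site or window for H3K27me3 to be tested. Requiring 500 bases of overlap left 1 member with both marks against 4. No centring, quantile normalization and windows with a peak in at least 2 libraries each gave 1 member window past the threshold against 0, WNT7A, with adjusted p values of 0.00777, 0.0426 and 0.0433 for log2 differences of -0.95, -0.56 and -0.52, and leaving out replicates gave 0 to 1. The other alternatives gave 0 member calls for sites of both marks and for windows where they could be run. Over all sites, H3K27me3 calls went from 0 to 3 lower without centring, 2 lower with the replicate block and 1 lower without V16D/CTL replicate 3, and H3K4me3 calls from 0 to 1 lower with the mean fold weighted by peak length. All H3K27me3 windows called numbered 222 higher and 73 lower, against 100 and 96 with quantile normalization, 17 and 330 without centring, 140 and 72 with covered bases only, and 144 to 194 and 29 to 95 leaving out a replicate (146 and 29 without V16D/CTL replicate 2, 144 and 48 without replicate 3). The FZD10 window (0.03) turned to -0.42 without centring, -0.013 with quantile normalization and -0.10 with a 10 kb upstream window, and ranged from -0.097 to 0.17 leaving out a replicate, below 0 without V16D/CTL replicate 2 or 3 or V16D/H19 replicate 3. The SFRP2 window (0.13) turned to -0.32 without centring and ranged from -0.024 (without V16D/CTL replicate 2) to 0.28, the DKK2 window (0.20) turned to -0.24 without centring, the WNT10A window (-0.12) ranged from -0.39 to 0.10, above 0 without V16D/H19 replicate 2 or V16D/CTL replicate 1, and the SFRP1 H3K4me3 site (0.12) ranged from -0.062 to 0.30, below 0 without V16D/CTL replicate 1 or V16D/H19 replicate 3. The cause of these turns was not tested. Leaving out a replicate moved the WNT7A H3K4me3 site over 0.20 to 0.76 and the FZD2 site over -0.76 to -0.35, past the threshold in no case. Counting every start of the RefSeq promoter table, an alternative chosen after seeing the data, gave 24 members with H3K4me3 in all 6 libraries against 20, 16 against 14 with H3K27me3 and 6 against 4 with both. Leaving out a replicate gave 20 to 21, 14 to 15 and 4 to 5, and covered bases at 79.8% to 90.6%. Leaving out a library makes separation easier by construction, and members with separate H3K4me3 extents then numbered 4 to 9 higher (9 without V16D/H19 replicate 3, beside 21.9% of all windows) and 2 to 7 lower (7 without V16D/CTL replicate 3, beside 10.9%). Those lower in H3K27me3 numbered 2 to 6, with 6 without V16D/CTL replicate 1 (37.5%) or V16D/H19 replicate 1 (22.3%). Deviations of same-numbered libraries from their group means had correlations from -0.016 to 0.026. Centring takes out any shift shared by whole libraries, so these values cannot decide whether the replicate numbers pair the libraries. With the replicate block no member passed (0 against 0) and 213 windows were higher and 65 lower.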
